A study of Mus musculus with 27 samples.

Results

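Serpinb2, Serpinb3a, Serpinb3b, Serpinb3c, Serpinb3d, Serpinb5, Serpinb11 and Serpinb12 are clade B serpins known from stratified squamous epithelia. They were followed across mouse esophageal development and across Nrf2 and Keap1 genotypes. The members were chosen by name: all non-control probes whose gene name in the scanner files is one of these 8 symbols were taken, which gave 12 of the 41174 probes and 8 of the 28508 genes of the array. The other 18 clade B serpins on the array serve for comparison. No measured value entered the choice, but the members were picked with earlier results of these data known.

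The study profiled mouse esophagus on Agilent two-colour gene expression microarrays, with 3 biological replicates in each of 9 groups and 27 arrays in all. Whole esophagus of wild-type C57BL/6J mice was collected at embryonic days 11.5 and 15.5 (E11.5, E15.5), at birth (P0) and at postnatal day 7 (P7). At P7, whole esophagus of Nrf2-/-, Keap1-/- and Nrf2-/-Keap1-/- mice, all on a C57BL/6J background, was added. The adult groups were dissected esophageal epithelium of wild-type and Nrf2-/- mice at 8 weeks, so from P7 to adult the tissue changed together with the age. The labels name no conditional allele or Cre driver for the mutants. Every sample was labelled with the red dye Cy5 and hybridised against the same universal mouse reference RNA, a pool of 11 mouse cell lines, in the green dye Cy3. Values below are log2 ratios of Cy5 over Cy3: 0 means that sample and reference gave equal signal, and 1 unit is a doubling.

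Serpins are protease inhibitors that trap their target by a large change of shape after it cuts an exposed loop. Most serpins are secreted, whereas those of clade B lack a classical signal peptide and act mainly inside cells. Several are abundant in the upper layers of stratified squamous epithelia such as skin, tongue and esophagus, where proteases of lysosomes and of the cell surface take part in cornification and shedding. Serpinb5, also called maspin, has the serpin fold without known protease inhibition. Serpinb2, or plasminogen activator inhibitor 2, inhibits urokinase. The Serpinb3 genes are the mouse counterparts of the human squamous cell carcinoma antigens, which inhibit cathepsins and chymotrypsin-like proteases. Serpinb12 inhibits trypsin-like proteases, and Serpinb11 is an epithelial relative. In the second theme of the study, Keap1 marks the transcription factor Nrf2 (gene symbol Nfe2l2) for degradation, so that loss of Keap1 leaves Nrf2 active, and Nrf2 binds antioxidant response elements of its target genes.

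The 8 members lie in the same cluster, among other clade B serpins. By the probe coordinates of the scanner files, which use the mm9 build, they occupy 643 kb of chromosome 1, from the Serpinb5 probe at 108778585 to the end of a Serpinb2 probe at 109421555. The order is Serpinb5, Serpinb12, Serpinb3a, Serpinb3d, Serpinb3b, Serpinb3c, Serpinb11 and Serpinb2. The 4 Serpinb3 genes are on the minus strand and the other 4 on the plus strand. Serpinb13 and Serpinb7 lie between members, Serpinb10 and Serpinb8 lie beyond Serpinb2, and the remaining 14 clade B serpins of the array are on chromosome 13.

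The Serpinb3 genes are recent duplicates, and the promoters of Serpinb3a, Serpinb3b and Serpinb3c are alike. The Serpinb3d promoter has no match to the TATA box on which the stretches were cut, and it was not compared. The 3 sequences below are matching stretches of 170 bases upstream of Serpinb3a, Serpinb3b and Serpinb3c, taken from the RefSeq promoters of the GRCm38.p6 build and written 5′ to 3′ on the minus strand of chromosome 1, at chr1:107052339-107052508, chr1:107161126-107161295 and chr1:107278373-107278542. They end 35, 11 and 1 bases before the annotated gene starts. They are shown because Serpinb3a, Serpinb3b and Serpinb3c are the genes whose levels are compared with and without Nrf2 and Keap1, and capitals mark a match to the core of the antioxidant response element (TGANNNNGC) and a TATA box (TATAAA).
Serpinb3a: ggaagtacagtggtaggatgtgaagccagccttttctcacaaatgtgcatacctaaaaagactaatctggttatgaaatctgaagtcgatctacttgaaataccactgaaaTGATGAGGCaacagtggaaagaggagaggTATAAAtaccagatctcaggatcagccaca
Serpinb3b: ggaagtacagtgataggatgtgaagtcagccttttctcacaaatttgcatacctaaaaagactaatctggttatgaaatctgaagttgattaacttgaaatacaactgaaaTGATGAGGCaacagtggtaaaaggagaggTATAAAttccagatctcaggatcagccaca
Serpinb3c: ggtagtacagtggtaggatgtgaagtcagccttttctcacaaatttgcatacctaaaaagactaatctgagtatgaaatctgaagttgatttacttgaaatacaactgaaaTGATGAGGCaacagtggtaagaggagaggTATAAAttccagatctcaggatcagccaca
Serpinb3a had the same base as Serpinb3b at 160 of the 170 positions (94.1%) and the same base as Serpinb3c at 160 (94.1%), and Serpinb3b and Serpinb3c shared 164 (96.5%). The stretches were cut around the TATA box, so its identity was fixed by that choice. The marked match to the antioxidant response element has the same letters in the 3 genes. Motifs were searched in the part of each promoter upstream of the gene start. On either strand, TGANNNNGC is found in 7 of 10 member promoters, which belong to 6 of the 8 members. It is found in 35.2% of all 32851 RefSeq mouse promoters of 300 bases, so its presence is common. TATAAA on the forward strand is found in 7 of 10 member promoters (5 members) and in 7.59% of all promoters. The AP-1 site TGANTCA, searched on both strands, is found in 5 of 10 (4 members, Serpinb2, Serpinb5, Serpinb11 and Serpinb12) and in 6.75%. A match is a description of the letters and does not show binding.

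The same likeness limits what single probes can tell apart. The probe at base 359 of the Serpinb3a transcript also lists Serpinb3c among its targets, the probe at base 775 of Serpinb3c also lists Serpinb3b, and the only Serpinb3b probe, at base 1496, also lists Serpinb3a. Values of these 3 genes may therefore contain signal of each other. The following probe sequences, from the scanner files, are those of 4 Serpinb3 probes, 2 of which list a second member, and of the Serpinb12 probe whose values are set against those of its partner at base 1392.
Serpinb3a, base 359: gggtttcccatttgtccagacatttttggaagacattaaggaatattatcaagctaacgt
Serpinb3a, base 464: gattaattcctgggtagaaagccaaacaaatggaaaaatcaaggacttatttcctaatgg
Serpinb3c, base 775: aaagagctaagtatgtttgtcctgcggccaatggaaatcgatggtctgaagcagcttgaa
Serpinb3d, base 181: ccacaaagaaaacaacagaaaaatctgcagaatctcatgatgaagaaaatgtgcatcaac
Serpinb12, base 474: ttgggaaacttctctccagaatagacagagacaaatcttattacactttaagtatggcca

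Some features of the arrays bear on every value. Between 58.9% and 69.3% of spots per array were well above background in Cy5, and no member probe was saturated. The genotype labels were checked on the targeted genes. Nfe2l2 was lower than in wild type in the Nrf2-/- and Nrf2-/-Keap1-/- groups (-3.63 and -3.86 log2 units at P7, and -4.30 for Nrf2-/- in the adult), whereas the Keap1 probe changed by -0.45 in Keap1-/- (adjusted p = 0.145) and by -0.99 in Nrf2-/-Keap1-/- (adjusted p = 0.0789), neither past the threshold. The Nrf2 target Nqo1 was 4.89 log2 units higher in Keap1-/- than in wild type. All 3 Keap1-/- arrays, and no others, were on one slide, scanned on a day of their own, so genotype, slide and scan cannot be told apart. The array labelled E11.5 replicate 3 correlated at 0.98 and 0.976 with E15.5 replicates 2 and 3 over all genes, but at 0.832 and 0.775 with its own group. The array labelled E15.5 replicate 1 correlated at 0.957 and 0.927 with E11.5 replicates 1 and 2, and at 0.805 and 0.814 with its own group. Embryonic results are therefore given with and without these 2 arrays.

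The squamous label of the tissue was checked with 7 epithelial markers (Krt5, Krt14, Krt15, Trp63, Krt4, Krt13 and Ivl). They were well above background on all P0, P7 and adult arrays, with the exception of 1 marker in Keap1-/-, and their mean log2 ratio was 3.27 to 3.50 at P0 and 3.42 to 3.88 at P7. Serpinb2, Serpinb3a, Serpinb3b, Serpinb3c, Serpinb5, Serpinb11 and Serpinb12 were well above background on every P0, P7 and adult array. Serpinb3d was not well above background on any of the 27 arrays in either dye. Its log2 ratio lay between -0.27 and 0.27. It was not tested, and all results below concern the other 7 genes.

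**Figure D1:**
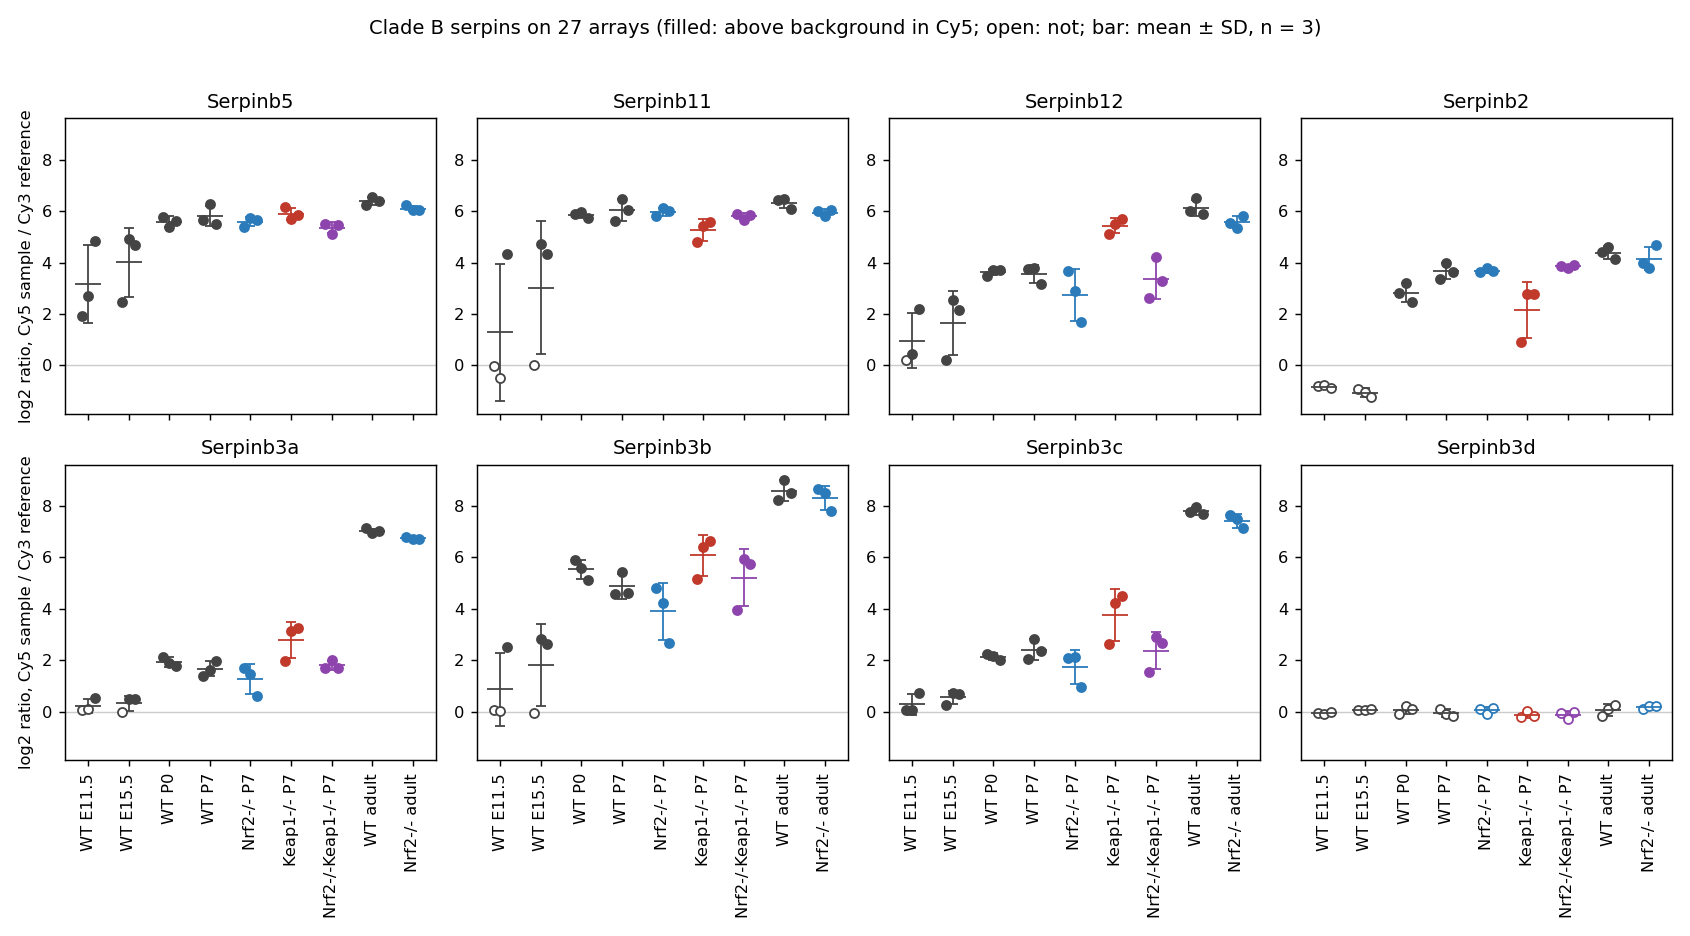
Log2 ratio of Cy5 sample over Cy3 reference (vertical axis) of each member on each of the 27 arrays in the 9 groups (horizontal axis). Filled points were well above background in Cy5, open points were not, and bars give the group mean ± SD (n = 3). Serpinb3a and Serpinb3c stay at or below 3.23 and 4.48 in the 7 groups up to P7 and at or above 6.70 and 7.12 in the adult, while Serpinb3d stays near 0 throughout.

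In the metaplasia phase, from E11.5 to P7, all 7 measured members rose. This comparison asks which genes accompany the change from a simple columnar to a stratified squamous epithelium. In the test among the 4 wild-type stages, 7 of 7 members passed, against 30% of all 19912 genes tested. From E11.5 to P7, 7 of 7 were called higher, where 16.7% of all genes were, and the median change was 2.65 log2 units for the members and -0.01 for all genes. Markers of squamous epithelium (3 of 7 called higher, mean log2 ratio 0.73 to 2.90 at E11.5 against 3.42 to 3.88 at P7) and of muscle (2 of 6 called higher, 0.26 to 2.79 against 3.95 to 4.30) moved over the same stages. So did simple epithelial keratins (2 of 4 called higher, -1.11 to 0.52 against 0.91 to 1.74), leukocyte markers (2 of 4, -1.84 to -1.09 against -0.98 to -0.90) and 1 of 4 mast cell markers. Without the 2 embryonic arrays that stand apart, 7 of 7 squamous markers, 5 of 6 muscle markers, 3 of 4 simple keratins, 2 of 4 leukocyte markers and 2 of 4 mast cell markers were called higher. Of 5 fibroblast markers 3 were then called higher and 1 lower. Of 3 tested airway markers (Sftpc, Foxj1 and Scgb1a1) 1 was called lower, Foxj1 (-0.60). Their part in the result was not tested. In these bulk samples fewer cells of a type and less RNA per cell cannot be told apart.

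Serpinb2 appeared between E15.5 and P0. Its log2 ratios were -0.81, -0.78 and -0.89 at E11.5 and -0.90, -1.04 and -1.23 at E15.5, and none of these 6 arrays was well above background in Cy5. At P0 it was at 2.83, 3.20 and 2.46, and at P7 at 3.37, 3.98 and 3.65. The embryonic and postnatal ranges were far apart, and the E11.5 and E15.5 arrays that stand apart did not differ from the others for this gene. Because the embryonic values are only bounds, Cy5 signal was at least 17.2-fold higher at P0 than at E15.5 (limma adjusted p = 1.11e-06 on the ratio) and at least 32.2-fold higher at P7 than at E11.5 (adjusted p = 2.61e-07), against the mean Cy5 signal of the embryonic arrays. From P0 to P7 it changed by 0.83 ± 0.20 (SE), which missed the threshold (adjusted p = 0.0585) and passed it without P0 replicate 2 (1.02, adjusted p = 0.0416).

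Serpinb3b, Serpinb3a and Serpinb3c also rose around birth. Serpinb3b was at 0.07, 0.03 and 2.49 at E11.5, at -0.04, 2.81 and 2.63 at E15.5, at 5.89, 5.57 and 5.12 at P0 and at 4.55, 5.41 and 4.62 at P7. From E15.5 to P0 it rose by 3.73 ± 0.79 (SE, adjusted p = 0.00905), and by 2.80 ± 0.28 (adjusted p = 0.000241) without the 2 embryonic arrays that stand apart. Serpinb3a rose over the same step by 1.61 ± 0.20 (adjusted p = 0.000538) and Serpinb3c by 1.58 ± 0.24 (adjusted p = 0.00161). Serpinb3a reached 2.14, 1.88 and 1.77 at P0, and Serpinb3c 2.25, 2.14 and 2.00, each above all of its embryonic values. How many of all genes did so was not computed. The Cy3 reference was well above background on only 8 of 27 arrays for the Serpinb3b probe and on 6 for both Serpinb3a probes, so these ratios have a weak denominator before adulthood and understate low signal.

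Serpinb5 was well above background on every embryonic array, and Serpinb11 and Serpinb12 on some of them. Serpinb12 was at 0.23, 0.46 and 2.18 at E11.5, at 0.22, 2.56 and 2.15 at E15.5 and at 3.48, 3.71 and 3.70 at P0. Serpinb11 was at -0.02, -0.48 and 4.35, then at 0.03, 4.72 and 4.33, and then at 5.89, 5.95 and 5.72. Serpinb5 was at 1.93, 2.70 and 4.85, then at 2.46, 4.90 and 4.68, and then at 5.77, 5.37 and 5.62. In each of these genes the high E11.5 value and the low E15.5 value belong to the 2 arrays that resemble the other stage. With all arrays, Serpinb12 rose from E15.5 to P0 by 1.99 ± 0.60 (SE, adjusted p = 0.0422), while the changes of Serpinb11 (2.83 ± 1.33, adjusted p = 0.164) and Serpinb5 (1.57 ± 0.74, adjusted p = 0.164) did not pass. In this step 5 of 7 members were called higher, against 11.3% of all genes. The Serpinb12 call was lost without E15.5 replicate 1 or 3 or without any single P0 array (adjusted p between 0.05 and 0.117).

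Leaving out both arrays changed the calls of the embryonic steps. From E11.5 to E15.5, no member passed with all arrays (0% of all genes did, 0 of 7 members at an unadjusted p under 0.05). Without the 2 arrays, 4 of 7 members were called higher, against 8.91% of all genes. Serpinb11, Serpinb3b and Serpinb3a were not well above background on either of the 2 remaining E11.5 arrays, so their values there are bounds. Cy5 signal of Serpinb11 was at least 21.6-fold higher at E15.5 (adjusted p = 1.40e-05 on the ratio) and that of Serpinb3b at least 4.97-fold (adjusted p = 0.000526). Serpinb5 rose by 2.48 ± 0.30 (SE, adjusted p = 0.000698) and Serpinb12, above background on 1 of the 2 E11.5 arrays, by 2.01 ± 0.23 (adjusted p = 0.000535). Serpinb3a (adjusted p = 0.185) and Serpinb3c (0.65, adjusted p = 0.0853) did not pass in that step, and Serpinb2 was below background at both stages. From E15.5 to P0, 6 of 7 were then called higher, against 10.5% of all genes, with Serpinb5 (0.80, adjusted p = 0.0706) as the exception. These fits have 2 arrays at each embryonic stage.

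Between P0 and P7, no member was called, where 2.42% of all genes were, and 1 of 7 members (Serpinb2) had an unadjusted p under 0.05. From E11.5 to P7 the calls of Serpinb5 and Serpinb11 rest on few arrays. The adjusted p of Serpinb5, 0.0218 with all arrays, was between 0.0502 and 0.086 without E11.5 replicate 1 or 2 or P7 replicate 1 or 2. That of Serpinb11, also 0.0218, was between 0.0562 and 0.0826 without E11.5 replicate 1 or 2 or P7 replicate 2 or 3. Without both arrays that stand apart, Serpinb5 rose by 3.50 ± 0.27 (SE, adjusted p = 1.58e-05), and Cy5 signal of Serpinb11 was at least 167-fold higher at P7 (adjusted p = 3.05e-07 on the ratio).

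In the maturation phase, from P7 to adult, 5 of 7 members rose, and the 3 measured Serpinb3 genes rose most. Serpinb3a went from 1.40, 1.63 and 1.96 at P7 to 7.12, 6.95 and 7.01 in the adult, a 41.2-fold rise (5.36 ± 0.16 log2 units, SE, adjusted p = 4.04e-06). Serpinb3c went from 2.03, 2.83 and 2.34 to 7.74, 7.96 and 7.66, a 41.8-fold rise (5.39 ± 0.21, adjusted p = 6.44e-06). For both genes every adult array lay above every younger array of any genotype. How many of all genes were separated in this way was not computed.

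Serpinb3b was at 8.21, 9.01 and 8.50 in the adult, and rose 13.1-fold (3.71 ± 0.29, SE, adjusted p = 9.75e-05). Serpinb12 went from 3.73, 3.80 and 3.15 to 6.01, 6.49 and 5.90, a 5.95-fold rise (2.57 ± 0.23, adjusted p = 0.000171). Serpinb2, at 4.42, 4.61 and 4.14 in the adult, rose 1.65-fold (0.72 ± 0.19, adjusted p = 0.0206). In all of these genes the P7 and adult arrays did not overlap. That restates the values behind the calls and adds no support, and the share of all genes without overlap was not computed.

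Serpinb5, at 6.24, 6.54 and 6.38 in the adult, and Serpinb11, at 6.42, 6.45 and 6.07, did not pass (0.58 ± 0.21, adjusted p = 0.059, and 0.26 ± 0.23, adjusted p = 0.384). The 5 of 7 members called higher compare with 19.9% of all 18180 genes tested. The median change was 2.57 log2 units over the members and 0.01 over all genes. The Serpinb2 call was lost without P7 replicate 1 or 3 or without adult replicate 1 or 2 (adjusted p between 0.0561 and 0.0731), and Serpinb5 passed without P7 replicate 2 (0.80, adjusted p = 0.00447). With each spot's own local background, Serpinb2 turned to -0.11 (adjusted p = 0.886).

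Age, tissue and part of the slides changed together in this comparison. All 5 fibroblast markers were lower in the adult (mean log2 ratio -1.66 to -1.42 against 0.19 to 0.40 at P7), as were 5 of 6 muscle markers (1.91 to 2.52 against 3.95 to 4.30) and 3 of 4 simple epithelial keratins (-3.46 to -3.08 against 0.91 to 1.74). Their part in the rise of the serpins was not tested. The squamous markers moved less than the Serpinb3 genes, with a mean of 3.91 to 4.30 in the adult and 3 of 7 called higher. With the scan day as a block, which compares P7 with the adult replicates 1 and 2 scanned on the same day, the changes of the 5 called members were 5.45 (Serpinb3c), 5.37 (Serpinb3a), 3.75 (Serpinb3b), 2.69 (Serpinb12) and 0.85 (Serpinb2), all called.

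The size of these changes depended on the reference dye. The Cy3 signal of the same member probes was higher on the arrays where Cy5 was bright, although the reference RNA was the same. For the Serpinb12 probe at base 1392 the median Cy3 signal was 108 scanner units on the 21 arrays up to P7 and 5889 on the 6 adult arrays, and for Serpinb3b it was 40.6 and 458. The median Cy3 signal over all spots of an adult array was 245 to 294 units, near the 223 to 386 of the other arrays outside the Keap1-/- group. Ratios of these probes therefore changed less than the sample dye did. In the Cy5 channel alone, an analysis added after the data were seen, 7 of 7 members were called higher from P7 to adult, against 20.2% of all genes. These Cy5 values were taken after normalization within each array and after the mean of both dyes was scaled between arrays. They are therefore not free of the Cy3 signal. Serpinb3c rose by 7.07 ± 0.24 (SE), Serpinb3b by 6.38 ± 0.29, Serpinb3a by 6.33 ± 0.29, Serpinb12 by 6.33 ± 0.30, Serpinb5 by 1.96 ± 0.19, Serpinb11 by 1.95 ± 0.37 and Serpinb2 by 1.63 ± 0.26. In the deposited ratios, by contrast, 3 members were called: Serpinb3c (3.64), Serpinb3a (1.93) and Serpinb12 (0.76), while Serpinb3b was at 0.03 (adjusted p = 0.944).

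**Figure D2:**
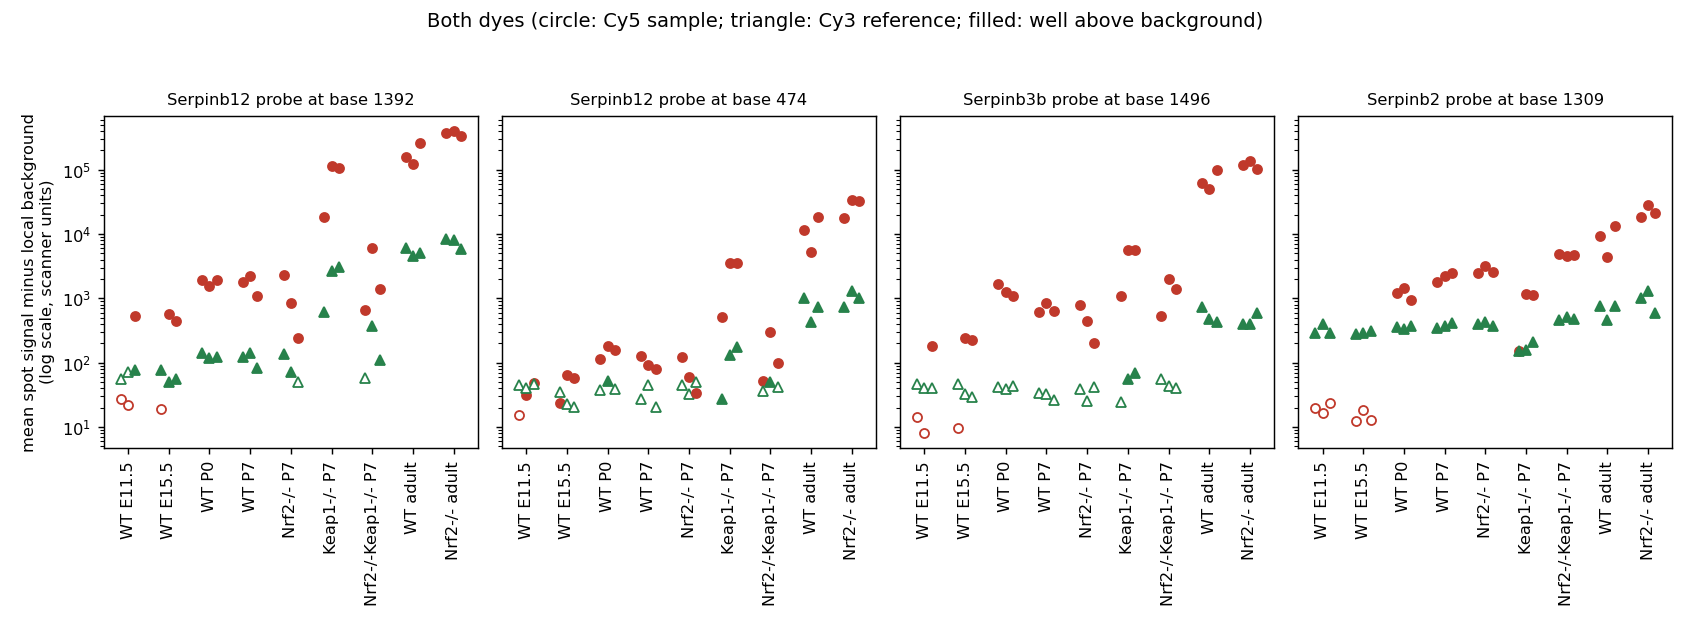
Mean spot signal minus local background in scanner units (log scale, vertical axis) of 4 member probes on each array of the 9 groups (horizontal axis), with Cy5 sample as circles and Cy3 reference as triangles, filled where well above background. For the Serpinb12 probe at base 1392 the reference rises with the sample on the Keap1-/- and adult arrays, while for Serpinb2 the Cy5 signal is low on the embryonic arrays and on Keap1-/- replicate 1.

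At P7, members differed in opposite directions between Keap1-/- and wild type. Genotype, slide and scan cannot be told apart in this comparison. Serpinb12 and Serpinb3a were higher in Keap1-/- than in wild type, and Serpinb2 and Serpinb11 were lower. The comparison asks what active Nrf2 does to the esophagus. In all, 4 of 7 members were called, 2 higher, where 15.4% of all 19246 genes were, and 2 lower, where 18% were, so the counts by themselves say little about the members. The same 4 genes are those whose Keap1-/- arrays did not overlap the wild-type arrays. This restates the values behind the calls and adds no support, and the share of all genes without overlap was not computed.

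Serpinb12 was at 5.12, 5.49 and 5.68 in Keap1-/- against 3.73, 3.80 and 3.15 in wild type, a 3.64-fold difference (1.86 ± 0.48, SE, adjusted p = 0.0131). Its 2 probes differed in size but not in direction, with 0.88 at base 1392 and 2.85 at base 474. The signals behind them were far apart. At base 1392, Cy5 was 1807, 2269 and 1105 units on the wild-type arrays and 18165, 115763 and 105227 on the Keap1-/- arrays, while Cy3 went from 125, 139 and 84 to 617, 2685 and 3107. The Keap1-/- arrays are the ones with the lowest median Cy3 over all spots, at 115 to 147 units, so the higher reference signal of this probe was not shared by the array. In Cy5 alone Serpinb12 rose by 4.49 ± 0.81 (adjusted p = 0.00223), and in the deposited ratios it changed by 0.25 (adjusted p = 0.649).

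Serpinb3a was at 1.98, 3.13 and 3.23 in Keap1-/- against 1.40, 1.63 and 1.96 (1.12 ± 0.35, SE, adjusted p = 0.0303), with the nearest arrays of the groups almost touching. Serpinb3c was at 2.61, 4.21 and 4.48 against 2.03, 2.83 and 2.34 (1.37 ± 0.52, adjusted p = 0.0643), and Serpinb3b at 5.16, 6.39 and 6.64 against 4.55, 5.41 and 4.62 (1.20 ± 0.64, adjusted p = 0.172). In each Serpinb3 gene, Keap1-/- replicate 1 lay within or near the wild-type range, below the other 2 Keap1-/- arrays. Without that array, Serpinb3c passed (1.95 ± 0.45, adjusted p = 0.00797) and Serpinb3a had an adjusted p of 0.00311. Without Keap1-/- replicate 2 or 3 or wild-type replicate 1 or 2, Serpinb3a did not pass (adjusted p between 0.0631 and 0.119), and neither did Serpinb12 without Keap1-/- replicate 3 (1.74, adjusted p = 0.0502).

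Serpinb2 was lower, at 0.91, 2.78 and 2.76 in Keap1-/- against 3.37, 3.98 and 3.65 in wild type (-1.52 ± 0.40, SE, adjusted p = 0.0143). Here too replicate 1 stood apart, and without it the change was -0.90 ± 0.15 (adjusted p = 0.00162). Both Serpinb2 probes were lower (-1.89 at base 1309 and -1.14 at base 1269). Serpinb11 was at 4.78, 5.43 and 5.57 against 5.62, 6.48 and 6.06 (-0.79 ± 0.23, adjusted p = 0.023), and its call was lost without Keap1-/- replicate 1 or wild-type replicate 2 or 3 (-0.55 to -0.79, adjusted p between 0.0561 and 0.0736). Serpinb5, at 6.15, 5.69 and 5.87, changed by 0.09 ± 0.20 (adjusted p = 0.759).

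The calls depended on the scale. In Cy5 alone, 5 of 7 members were called higher in Keap1-/-, against 14.4% of all genes: Serpinb12, Serpinb3b (2.18 ± 0.67, SE, adjusted p = 0.0292), Serpinb3c (1.64 ± 0.49, adjusted p = 0.0275), Serpinb3a (1.31 ± 0.35, adjusted p = 0.0167) and Serpinb5 (1.20 ± 0.19, adjusted p = 0.00116). Only Serpinb2 was called lower (-1.89 ± 0.51, adjusted p = 0.0176), where 18.6% of all genes were, and Serpinb11 was at -0.12 ± 0.64 (adjusted p = 0.9). In the deposited ratios the called members were instead Serpinb2 (-1.47) and Serpinb11 (-0.93), both lower, and Serpinb3b was at -1.07 (adjusted p = 0.177). With each array centred on its median, Serpinb12 (1.56) and Serpinb5 (0.55) were called, both higher, while the median of all genes moved to 0.11. Serpinb12 was higher and Serpinb2 lower in all 4 of these versions, but not past the threshold in each.

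Cell type markers also differed between Keap1-/- and wild type. All 4 simple epithelial keratins (Krt8, Krt18, Krt19 and Krt7) were lower in Keap1-/-, with a mean log2 ratio of -3.21 to -2.99 against 0.91 to 1.74 in wild type, and 4 of 5 fibroblast markers were lower (-0.66 to -0.44 against 0.19 to 0.40). Of 7 squamous markers 1 was higher and 1 lower (mean 3.44 to 3.76 against 3.42 to 3.88). Of 4 leukocyte markers 3 were lower (-1.55 to -1.14 against -0.98 to -0.90), of 4 mast cell markers 1 was lower (0.76 to 1.45 against 1.73 to 2.69), and the 1 red cell marker on the array was higher (4.45 to 4.78 against 3.71 to 4.18). Their part in the serpin changes was not tested.

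**Figure D3:**
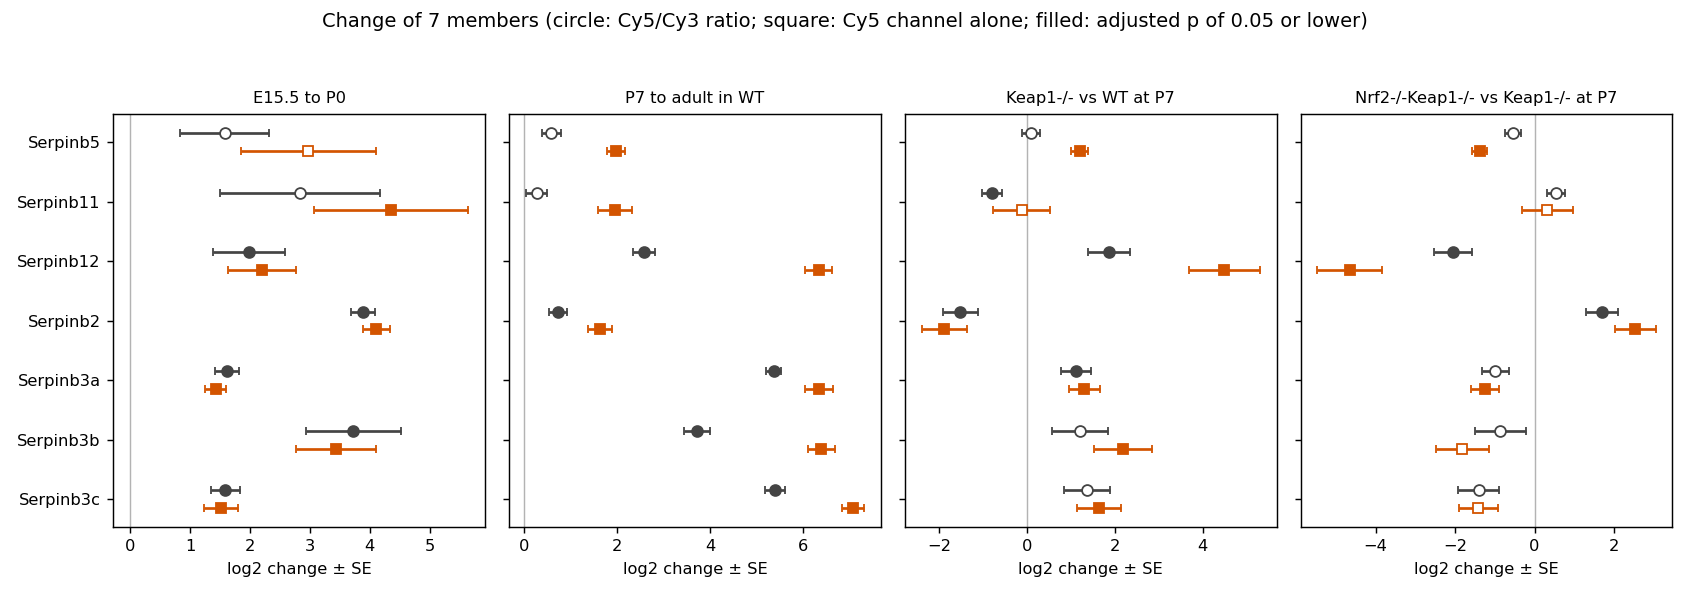
Log2 change ± SE (horizontal axis) of the 7 measured members (vertical axis) in 4 comparisons, as the Cy5/Cy3 ratio (circles) and in the Cy5 channel alone (squares), filled where the adjusted p is 0.05 or lower. Serpinb2 and Serpinb11 lie on the other side of 0 from the other 5 members in the ratios of both Keap1 comparisons, and the Cy5 changes of Serpinb12 are larger than its ratio changes from P7 to adult (6.33 against 2.57) and in Keap1-/- (4.49 against 1.86).

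Between the mutants with and without Nrf2, both genes with the largest called changes differed in the opposite direction. In Nrf2-/-Keap1-/- against Keap1-/-, Serpinb12 was lower (2.63, 4.21 and 3.28, a change of -2.06 ± 0.48, SE, adjusted p = 0.00791), and Serpinb2 was higher (3.85, 3.79 and 3.91, a change of 1.70 ± 0.40, adjusted p = 0.00798). Thus 1 of 7 members was called higher, where 18.3% of all genes were, and 1 lower, where 15.1% were. Arrays of the 2 groups did not overlap for Serpinb12 and Serpinb2, nor for Serpinb5 and Serpinb11, which were not called. The share of all genes without overlap was not computed, so this adds no support. The comparisons of Keap1-/- with wild type and with Nrf2-/-Keap1-/- use the same Keap1-/- arrays, so they are not independent. These arrays share no slide or scan day with another group. Genotype, slide and scan therefore cannot be told apart here either.

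Serpinb3a (1.68, 2.00 and 1.71 in Nrf2-/-Keap1-/-, a change of -0.98 ± 0.35, SE, adjusted p = 0.0503), Serpinb3c (-1.41 ± 0.52, adjusted p = 0.0581) and Serpinb5 (-0.54 ± 0.20, adjusted p = 0.0619) lay just outside the threshold. Serpinb11 (0.53 ± 0.23, adjusted p = 0.1) and Serpinb3b (-0.86 ± 0.64, adjusted p = 0.333) did not pass. Without Keap1-/- replicate 1, Serpinb3a (-1.38, adjusted p = 0.00514) and Serpinb3c (-1.99, adjusted p = 0.00721) also passed. With the slide as a random block, 5 members were called, 4 of them lower. As the Keap1-/- arrays are alone on their slide, this block cannot separate slide from genotype. In Cy5 alone, Serpinb12 (-4.65), Serpinb5 (-1.38) and Serpinb3a (-1.25) were called lower, where 11.9% of all genes were, and Serpinb2 (2.53) higher, where 15.3% were. In the deposited ratios, Serpinb2 (1.61) and Serpinb3c (-1.95) were called and Serpinb12 was not (-0.37, adjusted p = 0.501).

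Against wild type, no member passed at P7 in either mutant group that lacks Nrf2. In Nrf2-/-, 0 of 7 members were called and 0 had an unadjusted p under 0.05 (limma), where 0.0156% of all genes were called. In Nrf2-/-Keap1-/-, 0 of 7 were called and 1 of 7 (Serpinb5, -0.45 ± 0.20, SE) had an unadjusted p under 0.05, where 0.426% were called. Of the 7 members, 6 were on average lower in Nrf2-/-, led by Serpinb3b (4.79, 4.21 and 2.67, a change of -0.97 ± 0.64, adjusted p = 0.6) and Serpinb12 (3.67, 2.88 and 1.68, -0.82 ± 0.48, adjusted p = 0.558). In all 4 of Serpinb3a, Serpinb3b, Serpinb3c and Serpinb12 the lowest array was Nrf2-/- replicate 3, and wild-type and mutant arrays overlapped for all 7 members.

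In adult epithelium the comparison asks what the lack of Nrf2 changes in the mature tissue. No member was called (0 of 7, with 3 at an unadjusted p under 0.05, limma), where 0.445% of all genes were. All 7 were lower in Nrf2-/- on average, from -0.24 (Serpinb2) to -0.57 (Serpinb12) log2 units. With each array centred on its median all 7 were at 0.19 to 0.46, where the median of all genes was itself 0.40. Relative to that shift 4 members (Serpinb12, Serpinb3c, Serpinb3a and Serpinb11) lay below it and the other 3 above. Serpinb12 was at 5.55, 5.35 and 5.81 against 6.01, 6.49 and 5.90 in wild type (-0.57 ± 0.19, SE, adjusted p = 0.217), and Serpinb3a at 6.78, 6.70 and 6.72 against 7.12, 6.95 and 7.01 (-0.29 ± 0.11, adjusted p = 0.255). Arrays of the genotypes did not overlap for these 2 genes or for Serpinb3c, Serpinb5 and Serpinb11. The share of all genes without overlap was not computed, so this does not set the members apart. No slide held both adult genotypes, and wild-type replicates 1 and 2 were scanned on a different day from every adult Nrf2-/- array. Genotype is therefore largely confounded with slide and scan in this comparison. Within the scan day that holds both genotypes, with wild-type replicate 3 and Nrf2-/- replicates 1 and 2, the differences ran from -0.45 (Serpinb12) to 0.05 (Serpinb3b). The Nrf2 effect did not differ detectably between adult and P7 for any member (0 of 7 called, 0 at an unadjusted p under 0.05, with 0.0919% of all genes called).

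The levels of a member can be ordered over the 9 groups. For Serpinb3a and Serpinb3c, both adult groups stood above all others, and the gap to the next group, Keap1-/-, was 3.96 and 3.65 log2 units, larger than the SDs. For Serpinb12 the Keap1-/- mean (5.43) was next to adult Nrf2-/- (5.57) within the spread, and 1.80 above P0 (3.63) beyond it. Serpinb5 and Serpinb11 had all postnatal and adult means within 5.36 to 6.39 and 5.26 to 6.31, where neighbours in the order lay within the spread of each other, except for the adult genotypes in Serpinb5. Among the pairs of members over the 27 arrays, Serpinb3a and Serpinb3c were most alike (r = 0.992), followed by Serpinb3b with Serpinb12 (0.96) and Serpinb5 with Serpinb11 (0.95), and Serpinb3a with Serpinb11 was lowest (0.498). These correlations are descriptions over arrays that share stages and genotypes, and those among the Serpinb3 genes include shared probes.

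**Figure D4:**
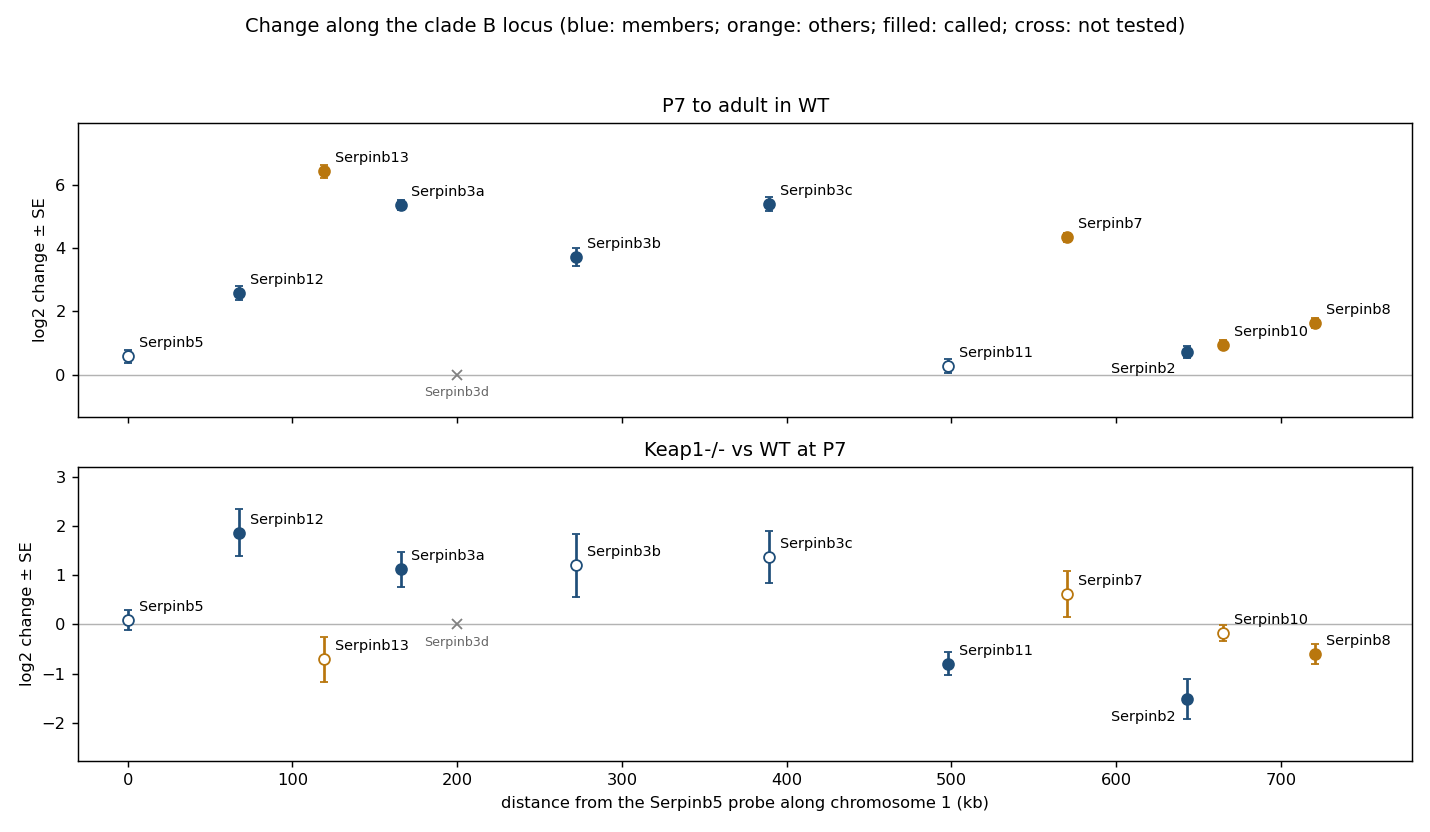
Log2 change ± SE (vertical axes) of each clade B serpin of chromosome 1 against the distance of its probes from the Serpinb5 probe in kb (horizontal axis), from P7 to adult and for Keap1-/- against wild type at P7. Members are blue, others orange, filled symbols were called and crosses mark the untested Serpinb3d. The steep adult rises lie in the middle of the locus, from Serpinb12 (67.6 kb) to Serpinb3c (389 kb) and again at Serpinb7 (570 kb).

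The neighbours that are not members shared the adult rise. Of the 18 other clade B serpins, 13 were tested. From P7 to adult 6 were called higher, where 19.9% of all genes were, and 2 lower, where 22.9% were. The largest changes were in Serpinb13 (6.43 ± 0.21, SE), which lies between Serpinb12 and Serpinb3a, and in Serpinb7 (4.33 ± 0.15), between Serpinb11 and Serpinb2. Serpinb8 (1.63), Serpinb10 (0.94), Serpinb1c (0.93) and Serpinb1b (0.92) also rose, while Serpinb6b (-1.27) and Serpinb6c (-0.92), on chromosome 13, fell. From E15.5 to P0, 7 were called higher, where 11.3% of all genes were, and 0 lower, where 8.47% were. They were led by Serpinb1a (4.16 ± 1.01), an inhibitor of neutrophil proteases. Without the 2 embryonic arrays that stand apart 8 were called higher, against 10.5% of all genes, and Serpinb1a rose by 2.93 ± 0.49 (adjusted p = 0.00359). In Keap1-/-, Serpinb6c (0.56), Serpinb6d (0.46) and Serpinb6a (0.42) were called higher and Serpinb6b (-2.12) and Serpinb8 (-0.61) lower. Of all genes 15.4% were called higher and 18% lower, so these counts by themselves say little about the list. Serpinb6b (1.97) and Serpinb8 (0.80) were called higher again in Nrf2-/-Keap1-/- than in Keap1-/-, where 18.3% of all genes were. In Nrf2-/- at either age, 0 of 13 were called, where 0.0156% of all genes were at P7 and 0.445% in the adult.

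Proteases that clade B serpins are known to bind, or that act with them in plasminogen activation, were followed as a list of 13 genes, all of them tested except 1 in the adult genotype comparison. Plau, which encodes the Serpinb2 target urokinase, was higher in Keap1-/- by 1.12 ± 0.11 (SE, adjusted p = 4.93e-05), where Serpinb2 was lower, and lower in Nrf2-/-Keap1-/- than in Keap1-/- (-0.99 ± 0.11, adjusted p = 0.000117), where Serpinb2 was higher. In the latter comparison Plau is named after its value was seen, as the only protease that was lower. The other 5 called proteases were lower in Keap1-/-, led by the cathepsins Ctsh (-1.38) and Ctss (-1.23) and by the tissue plasminogen activator Plat (-1.22). Of all genes 15.4% were called higher and 18% lower in Keap1-/-. In Nrf2-/-Keap1-/- against Keap1-/-, 6 were higher, among them the mast cell chymase Cma1 (1.88) and Ctss (1.37). Of all genes 18.3% were called higher and 15.1% lower there. From E15.5 to P0, 4 rose, where 11.3% of all genes did. The membrane protease Prss8 was first (1.54), and the urokinase receptor Plaur (0.95) was among them. Without the 2 embryonic arrays that stand apart 4 rose as well, against 10.5% of all genes. They were Plat (1.47), Ctsh (1.38), Prss8 (1.36) and Plaur (0.98), so Prss8 was no longer first. From P7 to adult 1 rose (Ctsb, 0.45, named after its value was seen), where 19.9% of all genes did, and 5 fell, where 22.9% did. Among those that fell were Plat (-1.92) and Plg, which was not well above background on any wild-type adult array. The stromal markers also fell.

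Genes outside the family with the most similar pattern were ranked by Pearson r with the mean of the 7 members over the 27 arrays. The first 10 were Muc15 (0.986), Dennd2d, Dennd2c, Stx19, Ovol1, Grhl1, Stat6, Pdlim2, Il33 and Bnipl (0.978). Muc15 encodes a membrane mucin, Ovol1 and Grhl1 encode transcription factors of epithelial differentiation, and Il33 an alarmin of barrier epithelia. Among single genes, the one most like a member was Wfdc12 for Serpinb2 (0.985), Muc15 for Serpinb3b (0.975), Atp6v0a2 for Serpinb3c (0.981), Lypd3 for Serpinb5 (0.983) and Mocos for Serpinb12 (0.975). For Serpinb3a it was a transcript that carries only an array design name (0.988).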

How the data were processed

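RNA of 27 mouse esophagi (3 per group, 9 groups, grouped by the labels) was hybridised in Cy5 against a common reference in Cy3, with no dye swap. The deposited scanner files of Agilent Feature Extraction (versions 10.5.1.1 and 10.7.3.1 per the file headers, 9.1 per the submitters' processing notes) hold the mean and local background intensity of each spot in both dyes. The deposited value table holds log10 ratios that differ from the scanner's own log10 ratio by at most 0.005, with a median per array of 0, or -0.0026 on Keap1-/- replicate 1. They are centred and turned as Cy5 over Cy3. Intensities were used for the main analysis and the deposited log10 ratios as an alternative.

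In R 4.3.3 with limma 3.58.1, intensities were corrected with normexp (offset 50) and normalized within each array by loess, with control spots at weight 0. Outlier-flagged spots were kept, since 16 of the 27 Serpinb5 spots and 11 of the 27 Serpinb11 spots carry such a flag. Spots whose local background exceeded 5 times the array median were left out. Probes were averaged to genes by current RefSeq symbol, which replaced the scanner name of 2933 probes, and 43 missing probe values were filled from additive probe and array effects where a gene had other probes (23 genes). The plan had been scanner names and plain means. No member was renamed or filled, and the planned version, run as an added alternative, changed no member's call or log2 change. A gene entered the test when 3 or more arrays of the fit had one of its probes well above background in Cy5 and each group had 2 or more values. The offset compresses ratios of dim spots. Values called Cy5 alone, and the bounds on Cy5 signal, were taken after the loess step. For them the mean log2 intensity of both dyes was quantile-scaled between arrays, so Cy3 enters these values. Comparisons used lmFit and eBayes on log2 ratios, two-sided, and p-values were adjusted over all tested genes by the method of Benjamini and Hochberg. A gene was called at an adjusted p of 0.05 or lower. The fits held the 12 wild-type arrays up to P7, the 12 P7 arrays, or the 6 arrays of 2 groups, and the age difference of the Nrf2 effect was an interaction term over 12 arrays. The scripts were tested on simulated data. The number of arrays, 3 per group, limits the precision.

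Alternatives changed the background correction, the normalization, the filters, the probes, the blocks and the arrays left out, and their effect is given in the closing section. All 8 members are described, other clade B serpins and proteases are given as counts with the called genes, and similar genes by rank of r, where the gene most like Serpinb11 is not reported here. The members and lists were chosen with earlier results of these data known. Promoters come from RefSeq (GRCm38.p6), and all 8 members had one.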

Additional observations from a re-analysis of the deposited data

How the results depend on the processing

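The direction of called members was stable: it changed in 1 of 549 recalculations, Serpinb2 from P7 to adult with each spot's own local background (-0.11), while 93 of 1312 recalculations of members that had not passed changed sign. The number of members called moved by more than 1.5 times in the following cases, and the causes were not tested. Leaving out the 2 embryonic arrays that stand apart gave 4 from E11.5 to E15.5. The stricter filter, which asks for signal in both dyes and so tests fewer members, gave 4 from E11.5 to P7, 2 from E15.5 to P0, 3 from P7 to adult and 4 among the 4 stages. Each spot's own local background gave 1 from E15.5 to P0 and 4 among the 4 stages. The deposited ratios and the processed signals of Feature Extraction each gave 3 from E15.5 to P0, 2 for Keap1-/- against wild type and 3 from P7 to adult, and leaving out outlier-flagged spots gave 3 from P7 to adult. The last removes 48 member values, of which 20, in members with several probes, were filled in. With plain means in their place it gave 4 from E11.5 to P7, 2 for Keap1-/- against wild type (Serpinb2 at -1.52, adjusted p = 0.0511) and 3 from P7 to adult. Median centring gave 2 for Keap1-/- against wild type. For Nrf2-/-Keap1-/- against Keap1-/-, Cy5 alone, all 27 arrays in 1 fit, median centring, no background correction and scale normalization gave 4 each, and the slide as a random block gave 5. From P0 to P7, Cy5 alone, the brightest probe and scale normalization gave 1 each, and scale normalization gave 1 for Nrf2-/- against wild type in the adult. Cy5 alone, plain means and leaving out probes that list another member were chosen after seeing the data.

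The replicate numbers did not pair the samples (correlations of same-numbered deviations from -0.448 to 0.638 in the wild-type series and -0.355 to 0.348 at P7). With the replicate number as a block, 1 member was called from P0 to P7. Leaving out each array in turn gave 5 to 7 members called from E11.5 to P7, 4 to 5 from E15.5 to P0, 0 to 1 from P0 to P7, 4 to 6 from P7 to adult, 5 to 7 among the 4 stages, 2 to 4 for Keap1-/- against wild type and 2 to 4 for Nrf2-/-Keap1-/- against Keap1-/-. Signal over background in Cy3 limits the Serpinb3 ratios, as described above.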
